A study of Mus musculus with 6 samples.

Results

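Interferon-stimulated genes are the transcripts that cells switch on when interferon tells them that a virus or another microbe is near. Here 51 such genes, chosen by name, were followed in liver RNA of 3 wild-type C57Bl/6 mice and 3 mice without Itpr2, a calcium release channel of the endoplasmic reticulum. The mice were 23 months old, came from a survival cohort without treatment, and were kept on standard diet under specific pathogen-free conditions. Each mouse gave 1 single-colour Agilent array, and the arrays are called WT 1 to WT 3 and KO 1 to KO 3 by the replicate number in their titles. The sources used here do not say how the Itpr2 allele was made. Of the 51 genes, 49 had at least 1 probe matched by accession, since the probes for Mx1 and Mx2 found no match, and 48 passed the background filter. They stand among 17991 genes tested, of which 13668 had a symbol. An accession without a symbol was counted as a gene of its own. A level is the log2 of a probe's signal after division by the 75th percentile signal on its array, and a change is the knockout mean less the wild-type mean of those levels.

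Type I interferons act through the receptor pair of Ifnar1 and Ifnar2 and the kinases Jak1 and Tyk2, and drive a complex that holds Stat2 and Irf9 onto a promoter motif called the interferon-stimulated response element. Interferon gamma acts through Ifngr1 and Ifngr2 with Jak1 and Jak2, and acts on promoters through a motif called the gamma-activated site. The Ifit, Oas and Mx families and Isg15 are usual targets of type I interferon. The guanylate-binding and immunity-related GTPases and the genes of peptide loading are strongly induced by interferon gamma, though both interferons reach most of these genes. In liver, hepatocytes as well as Kupffer cells and other immune cells can respond.

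The promoters of the members were searched for both motifs. RefSeq promoter windows of 300 bases, from 250 before to 50 after the start of transcription (assembly GRCm38.p6), were found for 38 members. The response element was searched on both strands as GAAA, any 2 bases and GAAA again, overlapping matches included. It was in the window of 20 of 38 members, or 52.6%, where 3.99% of the tested genes with a window had it. By role it was in 6 of 9 windows of the Ifit, Oas and Isg15 genes, 7 of 8 of the GTPases and 0 of 2 of the antigen processing genes. The gamma-activated site, searched as TTCNNNGAA, which reads the same on both strands, was in 10 of 38 member windows, or 26.3%, against 8.61% of the tested genes. For the same roles, in the same order, it was in 2 of 9, 4 of 8 and 0 of 2 windows. For 12 of the 20 members with a response element, the element nearest the start lay within the 100 bases before it. A match is a description of the letters and does not show binding. Shown here, because they are the members with a response element and the smallest p in their role, are a pair of promoters from the Ifit, Oas and Isg15 genes and a pair from the GTPases, 5′ to 3′ on the strand of the gene. Capitals mark the response element. The Ifit3 window is chr19:34583279-34583578 on the plus strand, Isg15 is chr4:156200769-156201068 on the minus strand, Gbp2 is chr3:142620413-142620712 on the plus strand and Igtp is chr11:58199306-58199605 on the plus strand, all of GRCm38.p6.
Ifit3: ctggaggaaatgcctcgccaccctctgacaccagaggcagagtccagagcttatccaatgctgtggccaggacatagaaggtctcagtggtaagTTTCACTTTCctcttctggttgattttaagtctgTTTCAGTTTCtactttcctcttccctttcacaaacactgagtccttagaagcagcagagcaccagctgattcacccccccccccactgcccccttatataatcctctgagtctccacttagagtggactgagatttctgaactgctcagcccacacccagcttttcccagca
Isg15: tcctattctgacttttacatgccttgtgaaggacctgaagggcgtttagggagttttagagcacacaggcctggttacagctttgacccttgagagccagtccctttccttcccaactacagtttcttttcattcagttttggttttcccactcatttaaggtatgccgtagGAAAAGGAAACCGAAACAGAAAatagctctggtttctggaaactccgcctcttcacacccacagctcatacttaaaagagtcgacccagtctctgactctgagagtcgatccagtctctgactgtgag
Gbp2: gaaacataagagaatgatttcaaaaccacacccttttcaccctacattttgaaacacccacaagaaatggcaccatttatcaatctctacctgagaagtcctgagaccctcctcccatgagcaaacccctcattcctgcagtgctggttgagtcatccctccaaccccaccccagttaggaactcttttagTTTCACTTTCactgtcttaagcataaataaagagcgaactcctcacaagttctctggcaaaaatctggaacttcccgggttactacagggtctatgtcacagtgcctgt
Igtp: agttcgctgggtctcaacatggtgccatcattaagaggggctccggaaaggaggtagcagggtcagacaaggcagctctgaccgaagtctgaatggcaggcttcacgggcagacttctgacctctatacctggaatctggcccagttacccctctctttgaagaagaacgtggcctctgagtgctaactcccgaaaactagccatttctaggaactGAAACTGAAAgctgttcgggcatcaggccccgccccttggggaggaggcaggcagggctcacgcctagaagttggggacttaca
Ifit3 had a pair of separate elements, beginning 156 and 122 bases before the start on the opposite strand. Isg15 had 3 that overlap into 1 run, from 78 bases before the start. Gbp2 had 1 element at 59 bases and Igtp 1 at 34 bases before the start, and Igtp was the only one of these 4 whose window also held a gamma-activated site.

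Before the results, 3 facts about the arrays matter. Itpr2 itself had levels of 2.90, 2.94 and 2.97 in wild type and 2.40, 2.23 and 2.06 in the knockout. Its change of -0.71 ± 0.13 (SE) did not pass after adjustment (limma adjusted p = 0.815), and where its probe lies relative to the deleted part is unknown. All 10 hepatocyte markers were well above background on every array, as the liver label asks, while WT 1 and KO 3 also carried striated muscle RNA, with all 7 muscle markers well above background against 2 on each other array. Of 6 fat cell markers, 5, 3 and 3 were well above background on WT 1 to WT 3, and 2, 5 and 5 on KO 1 to KO 3. WT 1, WT 2 and KO 1 shared slide 1, and WT 3, KO 2 and KO 3 shared slide 2. Between 58.65% and 60.64% of the spots on an array were well above background, no spot was saturated, and 3 arrays per genotype limit the precision of every value.

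The knockout had the lower mean for nearly all members, and most of that difference was gone when 1 wild-type array was left out. Of the 48 measured members 47 had a lower knockout mean, where 48.6% of all genes did, and their median log2 change was -0.42 against 0.0075 over all genes. No member passed the adjusted threshold of 0.05 in limma, which called 0.00556% of all genes, 1 of 17991 (Mansc4, lower in the knockout). At an unadjusted p under 0.05, limma gave 4 members lower and 0 higher, against 2.91% and 3.13% of all genes. The genotypes did not overlap for 9 members, each lower in the knockout, where 5.69% of all genes were lower and 6.13% higher without overlap. In RNA of whole tissue, fewer cells of a type and less RNA per cell cannot be told apart.

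WT 3 was the array that stood apart. It held the highest of the 6 levels for 46 of 48 members, although only 12.7% of all genes were highest on that array. The exceptions were Stat2 and Herc6, both highest on KO 1, as were 16.7% of all genes. WT 3 was above the mean of WT 1 and WT 2 for all 48 members, by a median of 0.88 on the log2 scale, where 56.7% of all genes were above it, by a median of 0.035. The members also spread more within wild type than within the knockout, with a median SD of 0.55 against 0.26, while over all genes the order was the other way, at 0.16 and 0.25. Without WT 3 the members' median change shrank to -0.16, and 35 of 48 kept a lower knockout mean against 46.8% of all genes. WT 3 was also the only wild-type array of slide 2. Within slide 2 the median was -1.06 with 48 of 48 members lower, against 50.2% of all genes. Within slide 1, where KO 1 was the only knockout array, it was -0.14 with 35 of 48 lower, against 52.8% of all genes. With the slide as a block the median was -0.62, and in that fit WT 3 weighed more than WT 1 or WT 2.

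**Figure D1:**
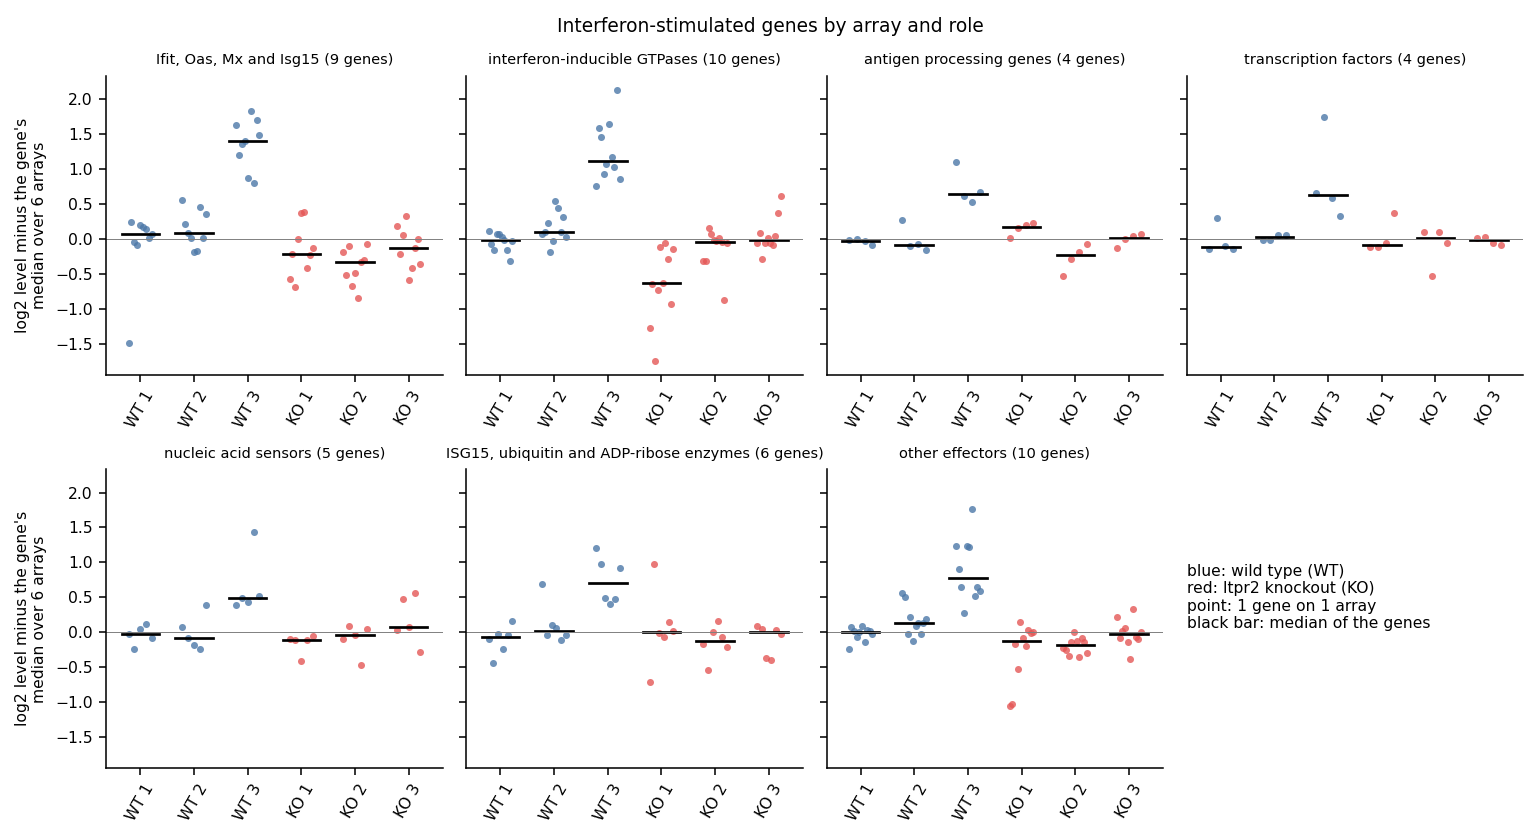
Each panel plots one role, with the 6 arrays on the x axis and, on the y axis, the log2 level of each gene minus its own median over the 6 arrays. Points are genes, coloured by genotype, and black bars are medians. WT 3 lies highest in every panel, with medians from 0.49 for nucleic acid sensors to 1.397 for the Ifit, Oas and Isg15 genes, and the GTPases on KO 1 have a median of -0.64.

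The Ifit, Oas and Isg15 genes include binders of viral RNA, synthetases that respond to double-stranded RNA and a protein tag, and all 9 that were measured had a lower mean in the knockout, with a median change of -0.76. Oasl1, which limits further interferon production by holding back Irf7, had levels of 3.01, 3.33 and 3.68 in wild type and 2.46, 2.55 and 2.74 in the knockout. The groups did not overlap, the change was -0.76 ± 0.20 (SE), or 1.70-fold lower, and the limma adjusted p was 0.815. Without WT 3 its change was -0.59. Ifit2, a protein that binds viral RNA, had -2.29, -2.31 and -1.32 in wild type and -2.75, -3.04 and -2.75 in the knockout. Its change was -0.87 ± 0.29 (SE), with no overlap, and -0.55 without WT 3, but it turned to 0.50 with normexp background correction. Oasl1 and Ifit2 were the 2 members with an unadjusted limma p under 0.05 without WT 3, where 1.79% of all genes were lower by that rule.

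Isg15, a ubiquitin-like protein that is attached to other proteins, had levels of 2.87, 3.15 and 4.29 in wild type and 2.67, 2.73 and 2.45 in the knockout. Its change of -0.82 ± 0.36 (SE) came with no overlap, and was -0.40 without WT 3. A further Isg15 probe gave -0.89. Oasl2, a relative of the 2′-5′ oligoadenylate synthetases, had 0.027, 0.021 and 1.72 in wild type against -0.22, -0.29 and 0.0039 in the knockout. It too had no overlap, yet WT 1 and WT 2 lay just above KO 3 and far below WT 3.

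The other genes of the family overlapped between genotypes. Oas3, a synthetase of the second messenger that activates RNase L, had -3.35, -3.70 and -1.70 in wild type and -3.14, -4.37 and -3.94 in the knockout. Ifit1, which binds viral RNA caps, ran from -2.30 on WT 1 to 0.82 on WT 3, the widest wild-type range in this role, and its 3 knockout levels of -1.39, -0.99 and -0.62 all lay inside that range. Its change of -0.42 ± 0.75 (SE) turned to 0.28 without WT 3. Ifit3, Oas1a and Oas2 had changes of -0.71, -0.56 and -0.53, and each was highest on WT 3. Oas1g was on no array well above background with either of its probes. Oas1a and Oas1g are close copies, as are Ifit3 and Ifit3b, so their probes may share signal and these values are uncertain.

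The interferon-inducible GTPases, which coat and break open vacuoles that hold microbes, had a lower knockout mean for 10 of 10 genes, with a median of -0.70. Gbp2, a guanylate-binding protein, had levels of 1.63, 1.58 and 2.28 in wild type and 0.24, 1.20 and 1.45 in the knockout, a change of -0.86 ± 0.36 (SE). Igtp, an immunity-related GTPase also called Irgm3, had 3.55, 4.06 and 5.17 in wild type and 2.89, 3.49 and 3.47 in the knockout, a change of -0.98 ± 0.42 (SE). Neither overlapped between genotypes. In both, WT 3 was the highest array and KO 1 the lowest.

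Irgm1, a regulator of the other GTPases, had 2.26, 2.72 and 3.44 in wild type and 2.21, 2.29 and 2.18 in the knockout, so that WT 1 lay among the knockout arrays. Its change was -0.58 ± 0.29 (SE). The most negative changes of this role were those of Tgtp1 at -1.19 ± 0.68 (SE) and Gbp6 at -1.14 ± 0.60 (SE). Both genes overlapped between genotypes. Tgtp1 was faint, at -5.08 on KO 1 and -5.01 on KO 2, where the lowest levels well above background were -5.91 and -5.81. The further Gbp6 probe gave -0.49, the widest gap between probes of 1 member, and Tgtp1 has a near-identical copy, Tgtp2, so both values are uncertain. Ifi47 lay nearest to no change, at -0.15 ± 0.31 (SE), with a knockout array, KO 3, at 3.81 above WT 1 and WT 2 at 3.17 and 3.23. Gbp3, Gbp7, Iigp1 and Irgm2 had changes from -0.83 to -0.41.

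Antigen processing genes had a median change nearer to 0. These 4 genes serve the last steps before a peptide is shown on MHC class I: Tap1 and Tap2 form the peptide pump, Tapbp (tapasin) loads the peptide, and Nlrc5 is the transcriptional activator of the class I genes. All 4 had a lower knockout mean, with a median of -0.17. Tap1 had levels of -1.16, -0.87 and -0.041 in wild type and -1.13, -1.67 and -1.28 in the knockout, and KO 1 lay within the wild-type range. Its change was -0.67 ± 0.31 (SE), and 0.031 with normexp. Tap2 had 3.29, 3.19 and 3.90 against 3.45, 3.00 and 3.29, a change of -0.22 ± 0.23 (SE), and Tapbp had 2.44, 2.40 and 3.01 against 2.67, 2.29 and 2.51, a change of -0.12 ± 0.21 (SE). The change of Nlrc5 was -0.062 ± 0.24 (SE). Without WT 3 the median of these genes was 0.037, with 1 of 4 lower.

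Set side by side, the 3 roles differed in size and in which arrays were low, and no test of these differences was made. The median changes of -0.76 for the Ifit, Oas and Isg15 genes, -0.70 for the GTPases and -0.17 for antigen processing became -0.26, -0.28 and 0.037 without WT 3. Within slide 1 they were -0.24, -0.66 and 0.23, and within slide 2 they were -1.57, -1.14 and -0.71. WT 3 exceeded the next highest array by a median of 1.07 for the Ifit, Oas and Isg15 genes, 0.96 for the GTPases and 0.44 for antigen processing.

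Among the knockout arrays the low array was not the same for these roles. KO 1 was below every wild-type array for 10 of 10 GTPases, 5 of 9 Ifit, Oas and Isg15 genes and 0 of 4 antigen processing genes. KO 2 was below every wild-type array for 5 of 10 GTPases, 8 of 9 Ifit, Oas and Isg15 genes and 3 of 4 antigen processing genes. KO 3 was so for 4, 6 and 1 of them. Over all members KO 1, KO 2 and KO 3 were below every wild-type array for 26, 30 and 19 of 48, where 32.8%, 30.4% and 30.4% of all genes were. Against the mean of WT 1 and WT 2 alone, the GTPases had medians of -0.66 on KO 1, -0.13 on KO 2 and -0.0040 on KO 3, and the Ifit, Oas and Isg15 genes had -0.24, -0.49 and -0.42. The difference between these roles over all arrays, GTPase median minus Ifit, Oas and Isg15 median, was 0.051, and it was -0.42 within slide 1 and 0.43 within slide 2.

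**Figure D2:**
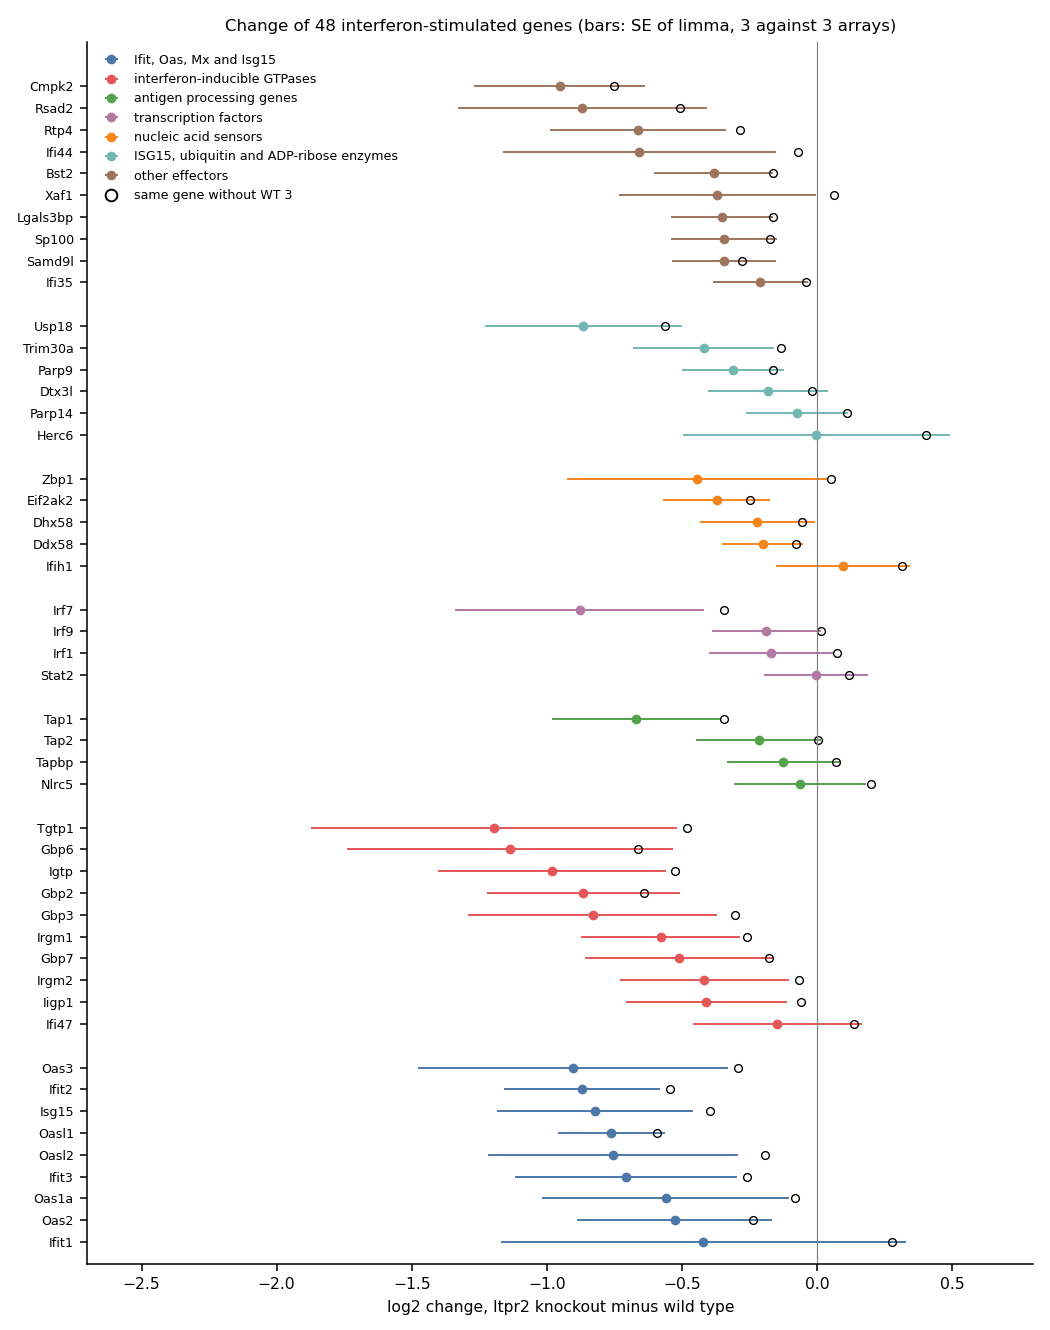
The x axis gives the log2 change of each measured member, knockout minus wild type, with the SE as bars, and the y axis lists the genes by role. Open circles give the same change without WT 3. The filled points lie below 0 for 47 of 48 genes and the open circles for 35 of 48.

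The 4 transcription factors that carry the signal all had a lower knockout mean, with a median of -0.18. Irf7, which amplifies type I interferon production and is itself an interferon target, had levels of 0.87, 0.55 and 2.31 in wild type and 0.46, 0.044 and 0.60 in the knockout, a change of -0.88 ± 0.46 (SE), or -0.34 without WT 3. Irf9, the DNA-binding part of the type I complex, had 2.50, 2.67 and 3.20 against 2.55, 2.71 and 2.55, a change of -0.19 ± 0.20 (SE). Irf1, a factor that gamma interferon induces early, had 3.22, 3.35 and 4.02 against 3.25, 3.46 and 3.38, a change of -0.17 ± 0.23 (SE). For Irf9 and Irf1 only WT 3 stood above the knockout arrays, and without it their changes were 0.016 and 0.075. Stat2 had a change of -0.0040 ± 0.19 (SE), with its highest level, 3.25, on KO 1.

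Of 5 sensors of viral nucleic acid 4 had a lower knockout mean, with a median of -0.22. Eif2ak2 (PKR), a kinase that stops translation on double-stranded RNA, had levels of -0.57, -0.092 and 0.038 in wild type and -0.54, -0.43 and -0.77 in the knockout, a change of -0.37 ± 0.20 (SE). Ddx58 (RIG-I) had 1.96, 2.06 and 2.37 against 1.89, 1.88 and 2.01, a change of -0.20 ± 0.15 (SE), and Dhx58 (LGP2) had -0.12, -0.35 and 0.26 against -0.58, -0.21 and -0.087, a change of -0.22 ± 0.21 (SE). Zbp1, a sensor of Z-form nucleic acid that can start necroptosis, had 2.03, 1.68 and 3.35 against 1.80, 1.44 and 2.48, with WT 3 highest and KO 3 next. Its change was -0.44 ± 0.48 (SE). Ifih1 (MDA5) was the 1 measured member with a higher knockout mean, at 0.096 ± 0.25 (SE), and its levels on WT 3 and KO 3 were 2.37 and 2.36. A further Ifih1 probe, much fainter at levels from -4.23 to -3.51, gave -0.22, so the sign depends on the probe.

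Among the enzymes that add or remove small tags, Usp18, which strips Isg15 from proteins and dampens the type I receptor, had levels of 0.22, 1.00 and 1.51 in wild type and -0.40, 0.13 and 0.40 in the knockout. Its change was -0.86 ± 0.37 (SE), with WT 1 between KO 2 and KO 3. Parp9, an ADP-ribosyltransferase that works with Dtx3l, had 1.86, 1.99 and 2.37 against 1.88, 1.89 and 1.52, a change of -0.31 ± 0.19 (SE). Trim30a, a ubiquitin ligase of the TRIM family, had -0.32, -0.52 and 0.43 against -0.46, -0.70 and -0.51, a change of -0.42 ± 0.26 (SE). Parp14 had 2.06, 1.99 and 2.57 against 2.24, 2.03 and 2.13, a change of -0.075 ± 0.19 (SE). Dtx3l had a change of -0.18. Herc6, the mouse ligase for Isg15, had a change of -0.0023 ± 0.49 (SE) from levels of -3.25, -2.85 and -1.83 against -1.82, -3.35 and -2.76, so that KO 1 and WT 3 were equally high. A further Herc6 probe was highest on WT 3, at -2.65 against -3.00 on KO 1.

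The remaining effectors all had a lower knockout mean, 10 of 10, with a median of -0.38. Cmpk2, a mitochondrial nucleotide kinase, had levels of -0.48, -0.060 and 0.33 in wild type and -1.60, -0.82 and -0.65 in the knockout, a change of -0.95 ± 0.32 (SE) with no overlap, and -0.75 without WT 3. Its neighbour Rsad2 (viperin), which makes a chain-terminating nucleotide, had 0.26, 1.07 and 1.75 against -0.55, 0.29 and 0.73, a change of -0.87 ± 0.46 (SE) with overlap. Both were lowest on KO 1. Rtp4 had 3.23, 3.22 and 4.36 against 3.05, 3.01 and 2.76, a change of -0.66 ± 0.33 (SE) with no overlap. Bst2 (tetherin), which holds budding virus at the cell surface, had 5.04, 4.997 and 5.67 against 4.85, 4.67 and 5.04, a change of -0.38 ± 0.22 (SE), and KO 3 reached WT 1. Lgals3bp, a secreted glycoprotein, had 4.03, 4.15 and 4.66 against 3.996, 3.87 and 3.92, without overlap by a narrow margin. Ifi44, Xaf1, Sp100, Samd9l and Ifi35 had changes from -0.66 to -0.21.

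**Figure D3:**
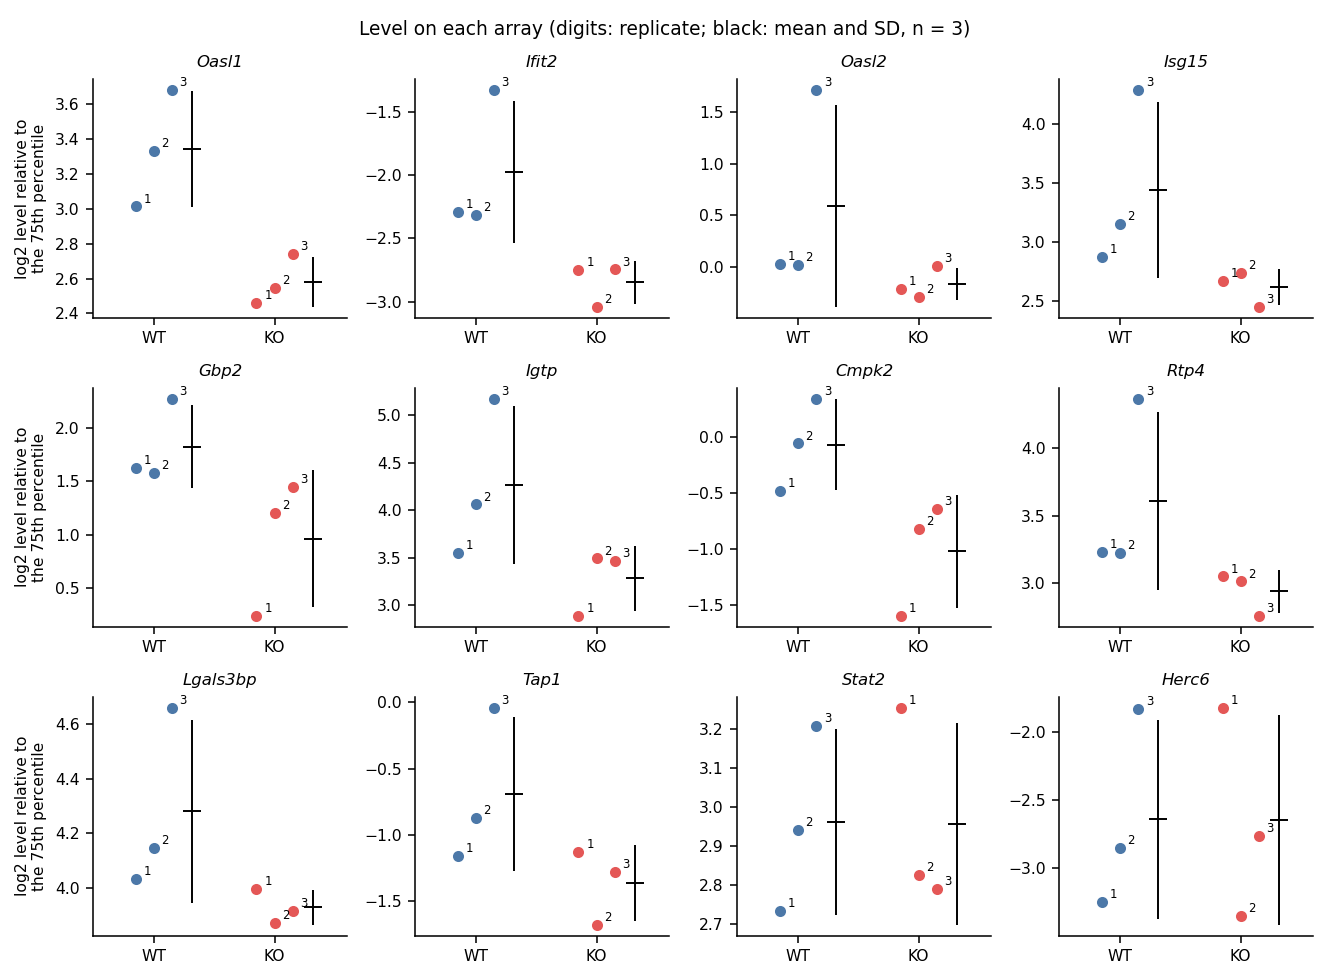
Each panel plots the log2 level of one gene, relative to the 75th percentile of its array, on the 6 arrays, with digits for the replicate and black bars for the mean and SD of 3 arrays. The first 9 panels are the members whose genotypes did not overlap, and Tap1, Stat2 and Herc6 are shown beside them as members that overlapped. The y axes differ between panels and do not start at 0.

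Members with and without a response element in the promoter were set side by side, with no test. The 19 measured members with an element had a median change of -0.56, the 18 with a window but no element had -0.35, and the 11 without a window had -0.41. These changes ranged from -1.19 to 0.096, from -0.95 to -0.0023 and from -1.14 to -0.062. WT 3 was the highest array for 18, 17 and 11 of them. Oasl1, Ifit2 and Cmpk2, 3 of the 4 members with an unadjusted p under 0.05, had no response element in their windows, and the other was Gbp2.

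The probes of a member mostly gave the same picture. Of 17 members with 2 probes, 15 had both past the background filter, and 14 of these had the same sign on both, with a median gap of 0.089 between their changes. The exception was Ifih1. Of the 63 member probes that passed the filter, 60 were highest on WT 3.

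Of the rest of the pathway, 40 of 45 listed genes were measured, and 0 passed the adjusted threshold in limma, while 5 were lower and 0 higher at an unadjusted p under 0.05, against 2.91% and 3.13% of all genes. Their median change was -0.075. Of the interferons themselves, Ifng, the gene of interferon gamma, had levels of -4.46, -3.54 and -2.91 in wild type and -5.64, -4.89 and -3.63 in the knockout, where 2 of 3 arrays were well above background. Its change was -1.08 ± 0.59 (SE), and 1.17 with normexp. Ifnl3, a type III interferon, had a change of -0.11 ± 0.30 (SE), and the probes of Ifnb1 and Ifna4 did not pass the background filter.

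Receptors and kinases had a median change of 0.017, with 4 of 10 lower. Il10rb, a receptor chain of the type III interferons, had a change of -0.23 ± 0.14 (SE). Among the genes that start interferon production, Tlr3 and Tlr7, endosomal sensors of RNA, had changes of -0.89 ± 0.28 (SE) and -0.49 ± 0.25 (SE). Tlr3 did not overlap between genotypes, but it was faint, at -5.50, -5.37 and -4.88 in the knockout. The lowest levels well above background on those arrays were -5.91, -5.81 and -5.61. With normexp the changes of Tlr3 and Tlr7 were 1.32 and 0.49. Of the brakes, Irf2 had levels of -0.42, -0.34 and -0.15 in wild type and -0.0054, -0.0017 and 0.0078 in the knockout, a change of 0.30 ± 0.13 (SE) with the knockout higher and no overlap. Pias1 had a change of 0.19 ± 0.15 (SE).

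Other interferon targets had a median of -0.31, with 8 of 10 lower. The chemokine gene Cxcl10 had 1.38, 2.37 and 2.16 in wild type and -0.18, 0.97 and 1.06 in the knockout, a change of -1.36 ± 0.41 (SE), and -1.26 without WT 3. Cd274, the immune checkpoint ligand PD-L1, had -0.92, -1.15 and -0.095 against -2.12, -1.55 and -1.61, a change of -1.04 ± 0.31 (SE), and -0.73 without WT 3. Neither gene overlapped between genotypes, and neither passed the adjusted threshold, at 0.815 each.

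Markers of immune cells also differed between arrays. Kupffer cell markers had a lower knockout mean for 11 of 11 genes, with a median of -0.57, and their summed signal, in multiples of the 75th percentile, ranged from 159 to 297 in wild type and from 119 to 164 in the knockout. The sum was highest on WT 1, where Marco had a level of 5.87 against 3.14 on WT 3. Of the 11 markers 7 were highest on WT 1 and 4 on WT 3, with median deviations of 0.61 and 0.41 on these arrays. T and NK cell markers had a lower mean for 8 of 10 measured genes, with summed signals from 11.54 to 25.1 in wild type and from 7.34 to 22.04 in the knockout, and between 9 and 11 of 12 matched markers were well above background on each array. Their median deviations of -1.01 on KO 1 and -0.88 on KO 2 stood against 0.46 on KO 3. Ccl5, a chemokine gene, was the brightest of these markers on every array, so the sums lean on it. Its levels were 2.21, 3.67 and 3.78 in wild type and 0.93, 1.41 and 3.00 in the knockout. Its change of -1.44 was the most negative of the 10. Cd4 and Gzma were the 2 with a higher knockout mean, with changes of 0.38 and 0.27, and Cd4 was highest on KO 3, at 2.67. The NK cell markers Klrb1c and Ncr1 did not pass the background filter.

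B and plasma cell markers were lowest on WT 3 for 6 of 6 genes, with a summed signal of 0.935 there against 3.01 to 15.7 on the other arrays. Monocyte and macrophage markers had summed signals from 15.5 to 17.97 in wild type and from 10.2 to 16.5 in the knockout, and neutrophil markers from 7.99 to 14.2 and from 5.23 to 52.3. Endothelial markers ranged from 39.9 to 47.0 in wild type and from 35.1 to 58.6 in the knockout. Plasmacytoid dendritic cells, a source of type I interferon, were listed by 5 markers. Of these, 4 had a lower knockout mean, with a median change of -0.16 over the 5, Siglech was the other at 0.15, and WT 3 was highest for 0 of 5. One of the lower markers, Cox6a2, had a change of -0.78 ± 2.78 (SE). Its level was 3.65 on WT 1 and 3.21 on KO 3, the arrays with striated muscle RNA, and from -4.66 to -3.32 on the others. Its value is therefore not a clean reading of these cells. Without WT 1 and KO 3, the arrays with striated muscle RNA, the members' median was -0.64 with 48 of 48 lower. That omission left WT 2 and WT 3 against KO 1 and KO 2, so WT 3 weighed more in the wild-type mean. It also left out the knockout array nearest to WT 1 and WT 2. Against their mean the members had medians of -0.14 on KO 1, -0.22 on KO 2 and -0.029 on KO 3. In the larger median, the muscle RNA and this change of arrays cannot be told apart. The part of immune cell content in the change of the interferon-stimulated genes was not tested.

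**Figure D4:**
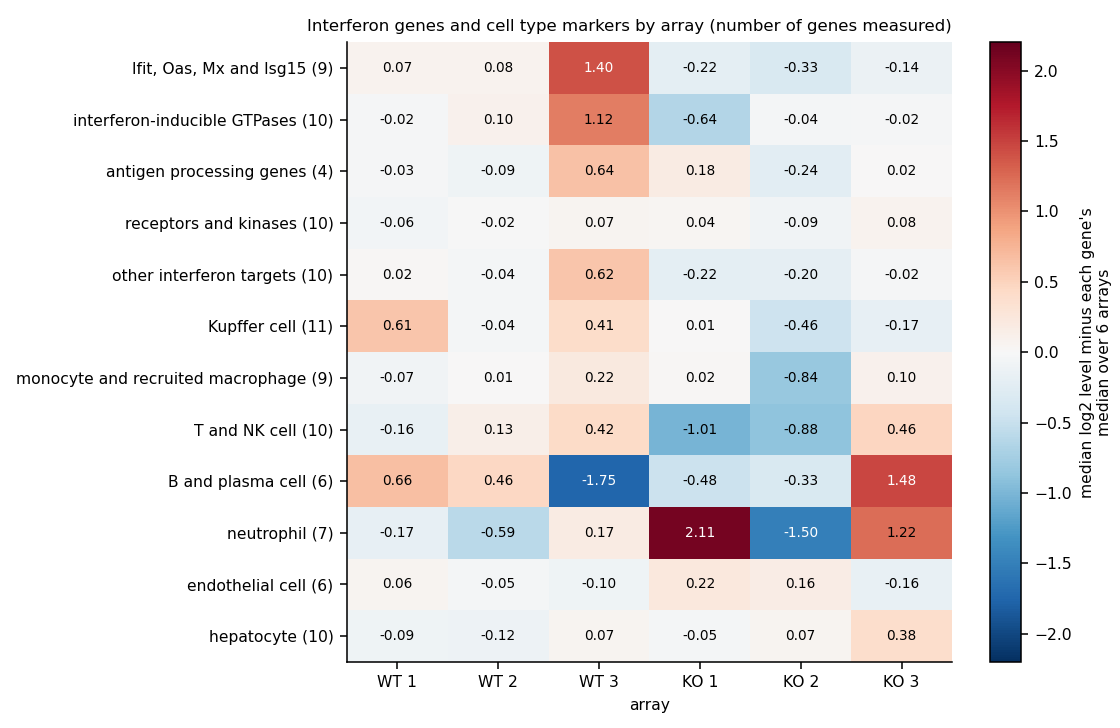
Rows are gene lists with the number of genes measured, columns are the 6 arrays, and colour and digits give the median over a list of the log2 level minus the gene's own median over the arrays. WT 3 reads 1.397, 1.12 and 0.64 for the 3 interferon roles, 0.41 for Kupffer cell markers, 0.42 for T and NK cell markers and -1.75 for B and plasma cell markers.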

How the data were processed

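Total RNA of frozen livers was labelled in 1 colour, Cy3, and put on 6 Agilent arrays. The deposited scanner tables hold intensity values, background-subtracted on each array by Agilent Feature Extraction 11.5.1.1 per the file headers (the submitters' processing notes name 10.7.3.1), and the 0 or 1 marks that software sets. The array design names build mm9 per the file headers. The authors' deposited matrix holds log2 values centred per probe, with the scaling not stated. Its columns for KO 2 and KO 3 matched the scanner values of KO 3 and KO 2, and the scanner tables decide the names here. Its column medians were 0.0021, -0.0094, 0.0050, -0.013, 0.011 and 0.0062 for WT 1 to WT 3 and KO 1 to KO 3.

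From the processed intensity, divided by its 75th percentile on the array, log2 was taken after leaving out control spots and 818 outlier spots. Probes were named by accession through RefSeq's table of GRCm38.p6, which named 28330 of 39429. Probes had to be well above background on every array of 1 genotype or the other, and a gene took its brightest probe by mean. Genotypes were compared with limma 3.58.1 in R 4.3.3 (lmFit and eBayes, two-sided, Benjamini-Hochberg over 17991 genes, threshold 0.05). On simulated data with 17881 genes and 50 changed genes per size, this comparison recovered 2% of log2 changes of 0.5, 26% of 1, 82% of 2 and 100% of 3. Values on every array are given, per role, for the 3 members with the smallest p and the member with the highest mean; for pathway lists, for up to 2 genes with the smallest p, some by their change alone; Oasl2, Oas3, Ifit1, Stat2, Herc6, Ifi47, Tgtp1, Gbp6, Lgals3bp and Ifih1 were chosen after their values were seen. A gene that the rule named in a pathway list is not reported here. The members and lists were chosen with earlier results of these data known. Alternatives were normexp (on the median signal), quantile normalization, median centring, the authors' matrix, 2 further filters, the mean of probes, outliers kept, slide and replicate blocks, each slide, and each array left out.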

Additional observations from a re-analysis of the deposited data

How the results depend on the processing

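The number of members and of pathway genes past the adjusted threshold was 0 under every alternative run. The 1 gene past it among all genes was lost, leaving 0, with normexp correction, with all 6 arrays required above background, with the replicate block and without WT 1 and KO 3, an omission chosen after seeing the data; with 1 array left out the count ran from 0 to 1. The members' median stayed below 0 throughout, from -0.62 to -0.16 over the omission of 1 array, and moved to -1.06 within slide 2. The members with a lower mean ranged from 35 to 48 of 48.

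The median of the Ifit, Oas and Isg15 genes was -1.57 within slide 2. The median of antigen processing genes was -0.59 with normexp, 0.23 within slide 1 and -0.71 within slide 2. The GTPase median minus that of the Ifit, Oas and Isg15 genes was -0.61 with normexp, -0.42 within slide 1 and 0.43 within slide 2. Members lower at an unadjusted p under 0.05 numbered 21 with the slide as a block (2.47% of all genes), 12 with the replicate block (3.37%), 16 with normexp (4.93%) and 12 without WT 1 (2.12%), against 4 (2.91%). With the slide as a block, and without WT 1, WT 3 weighed more than in the main comparison, so these counts lean more on that array. With normexp, which put the median of all genes at 0.14, changes took the other sign for Ifit2 (0.50), Tap1 (0.031), Ifng (1.17), Ifnl3 (1.22), Il10rb (0.034), Tlr3 (1.32), Tlr7 (0.49) and Pias1 (-0.0055), and the cause was not tested. Over the omission of 1 array the range crossed 0, with the highest value without WT 3, for Tap2 (-0.35 to 0.0029), Tapbp (-0.23 to 0.072), Irf9 (-0.33 to 0.016), Irf1 (-0.32 to 0.075), Zbp1 (-0.78 to 0.053), Parp14 (-0.19 to 0.11) and Ifnl3 (-0.38 to 0.12), and Ifnl3 was also at 1.3e-05 without KO 1 and 0.041 without KO 2. The other members with a lower knockout mean that turned without WT 3 were Ifit1 (0.28), Ifi47 (0.14), Nlrc5 (0.20), Xaf1 (0.063), Stat2 (0.12) and Herc6 (0.40).

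Deviations from the genotype mean had correlations of -0.19, 0.042 and -0.28 between same-numbered arrays. These values give no sign of pairing, but arrays with different numbers were not compared, so they cannot settle it. With the replicate block no member passed the adjusted threshold, as in the main comparison. At an unadjusted limma p under 0.05 that block gave 12 members lower (3.37% of all genes) against 4 (2.91%). Going by the simulation, log2 changes of 1 or less would mostly be missed with 3 arrays per genotype. Its changed genes were drawn from all genes, whose median SD was 0.16 in wild type and 0.25 in the knockout. The members had 0.55 and 0.26, so the shares recovered need not hold for them.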
